A study of Mus musculus with 15 samples.

Results

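The Pax genes encode transcription factors that bind DNA through a paired domain. The 9 mouse genes, Pax1 to Pax9, were examined in fibroblasts from mouse embryos with stable expression of EZHIP, a protein inhibitor of the H3K27 methyltransferase complex PRC2. Members were taken from fixed windows of 70 to 260 kb around each gene in build mm9, and every interval of the deposited peak lists that overlapped a window by at least 1 bp was kept. This gave 26 of the 2466 intervals in the lists, namely 9 of 902 EZH2 peaks, 9 of 438 FLAG peaks and 8 of 1126 H3K27me3 peaks. The submitters name the H3K27me3 list as residual H3K27me3. A gene without a peak thus lacks a call in cells with EZHIP, and its state without EZHIP was not measured here. The windows together span 1250 kb. They came with the rule and were not taken from mm9 gene annotation, which was not used here, so whether a peak lies on a start site, an exon or an intron was not measured.

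The series profiled 5 cell conditions by chromatin immunoprecipitation with 3 antibodies each, as 15 libraries without replicates. The lists come from cells titled EEDflox with the wild-type EZHIP reading frame, which carry a floxed gene for EED, the PRC2 subunit that reads H3K27me3, and received EZHIP by lentivirus. No drug treatment is labelled for them. All 3 lists share this background and differ in the antibody, to EZH2 (the catalytic subunit of PRC2), to H3K27me3, or to the FLAG tag, which was taken to mark EZHIP, since EZHIP is among the targets that the design text lists. None of the remaining 12 libraries was used, so there is no comparison between conditions and no test, and the intervals given for shares cover counting error only. The lists hold positions without heights, so depth is unknown, and the fibroblast label could not be checked against marker genes. Coordinates are mm9, counted from 1.

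PRC2 trimethylates histone H3 at lysine 27, and its sites in differentiated cells include many genes for developmental transcription factors. In mammals, its sites often coincide with unmethylated DNA rich in the dinucleotide CG. The Pax family has 4 subfamilies by protein structure and descent: Pax2, Pax5 and Pax8, Pax3 and Pax7, Pax4 and Pax6, and Pax1 and Pax9.

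EZH2 and H3K27me3 were found at 5 of the 9 genes, Pax1, Pax2, Pax5, Pax6 and Pax7, and FLAG at 4 of them, all but Pax1. Pax3, Pax4, Pax8 and Pax9 had no interval of any list. In each of the 4 subfamilies, exactly 1 member had no peak, and the other members had EZH2 with H3K27me3. This count depends on the windows and on narrow peaks. With windows widened by 50 kb Pax9 also had EZH2 and H3K27me3 (6 of 9 genes), and without peaks up to the lower quartile of their list's width Pax1 lost its EZH2 peak (4 of 9). Each chromosome was divided, from its first to its last peak of any list, into bins of 260 kb, the length of the longest window. Of 9489 bins, 8.43% held an EZH2 peak, 4.18% a FLAG peak and 10.6% an H3K27me3 peak. The corresponding shares of Pax windows were 55.6% for EZH2 (exact Clopper-Pearson 95% interval 21.2 to 86.3%), 44.4% for FLAG (13.7 to 78.8%) and 55.6% for H3K27me3 (21.2 to 86.3%). The windows, of 70 to 260 kb, are shorter than a bin except at Pax5, so the shares of windows and bins refer to unlike lengths. The bins were not chosen around genes, so they describe the density of the lists and not other gene families.

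**Figure D1:**
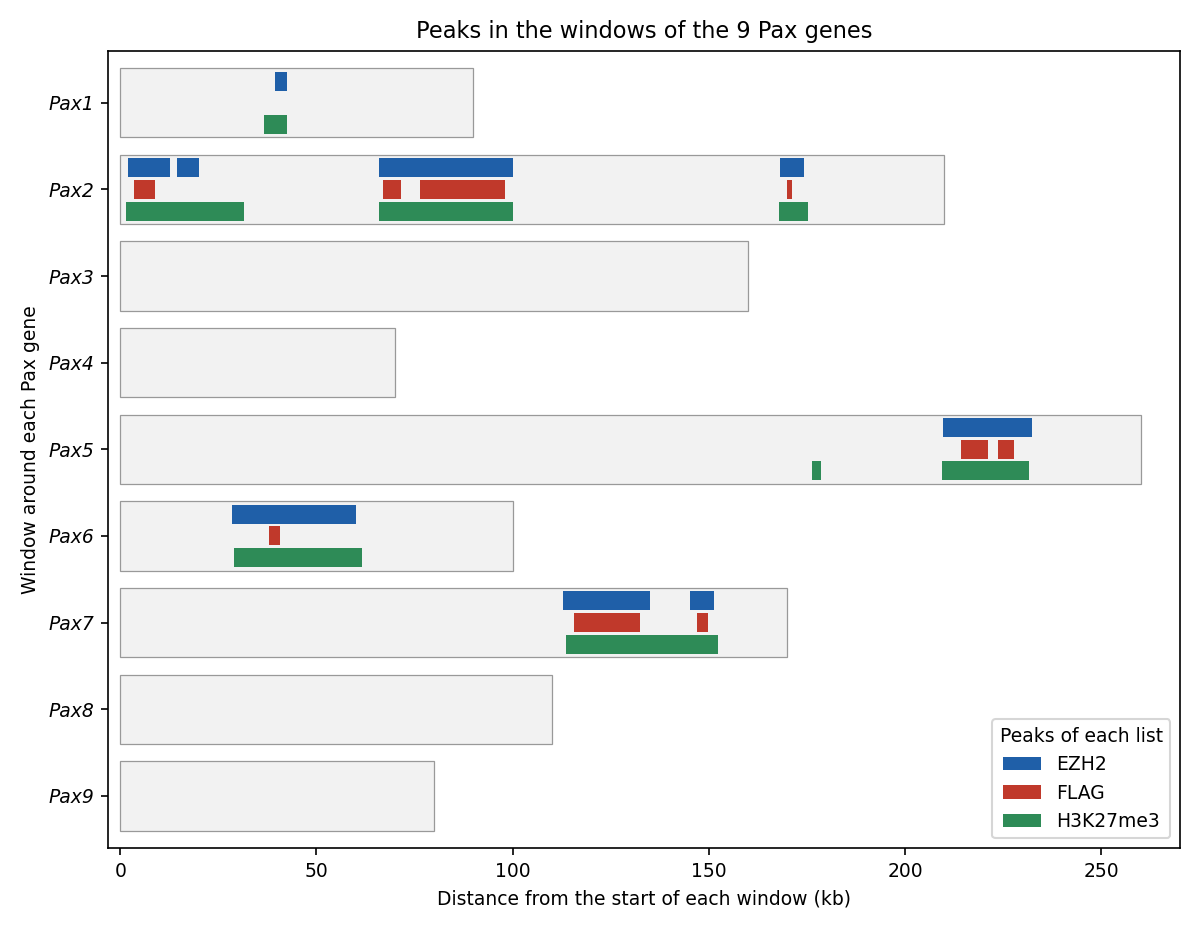
Peaks in the windows of the 9 Pax genes, drawn to scale as the distance in kb from the start of each window (grey box), with EZH2 in blue, FLAG in red and H3K27me3 in green. Pax2 held 4 EZH2 peaks, Pax3, Pax4, Pax8 and Pax9 held none, and all FLAG peaks lay within EZH2 peaks.

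Base composition upstream of the start sites is shown for the 5 genes that have a single start in the RefSeq promoter table, 3 with peaks and 2 without, because CG-rich DNA is a known feature of PRC2 sites. The sequences are the 250 bases before the start on the gene's own strand in build GRCm38.p6, with each CG in capitals. They are Pax5 (chr4:44710695-44710944, minus strand), Pax7 (chr4:139832969-139833218, minus), Pax1 (chr2:147364744-147364993, plus), Pax9 (chr12:56695221-56695470, plus) and Pax8 (chr2:24475600-24475849, minus). These positions are of another build than the peaks and cannot be set against them.
Pax5: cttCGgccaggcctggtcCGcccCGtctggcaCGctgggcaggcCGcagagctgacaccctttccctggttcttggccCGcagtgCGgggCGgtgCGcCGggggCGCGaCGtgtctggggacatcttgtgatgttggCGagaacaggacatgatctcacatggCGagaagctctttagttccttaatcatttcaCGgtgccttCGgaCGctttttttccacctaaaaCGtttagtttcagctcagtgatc
Pax7: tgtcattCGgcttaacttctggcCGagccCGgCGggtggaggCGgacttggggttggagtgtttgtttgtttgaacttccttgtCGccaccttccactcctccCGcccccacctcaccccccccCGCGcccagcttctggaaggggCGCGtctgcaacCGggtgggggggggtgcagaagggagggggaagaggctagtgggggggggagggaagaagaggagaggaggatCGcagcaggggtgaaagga
Pax1: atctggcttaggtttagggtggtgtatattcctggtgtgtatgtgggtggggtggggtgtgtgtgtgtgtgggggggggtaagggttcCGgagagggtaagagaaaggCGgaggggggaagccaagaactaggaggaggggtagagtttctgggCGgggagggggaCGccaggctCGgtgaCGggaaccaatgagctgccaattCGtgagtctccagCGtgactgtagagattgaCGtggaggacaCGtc
Pax9: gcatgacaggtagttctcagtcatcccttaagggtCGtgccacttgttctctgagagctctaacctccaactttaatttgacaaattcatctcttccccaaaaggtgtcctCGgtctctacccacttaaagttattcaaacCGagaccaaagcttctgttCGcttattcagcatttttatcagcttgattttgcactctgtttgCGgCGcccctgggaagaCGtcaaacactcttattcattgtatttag
Pax8: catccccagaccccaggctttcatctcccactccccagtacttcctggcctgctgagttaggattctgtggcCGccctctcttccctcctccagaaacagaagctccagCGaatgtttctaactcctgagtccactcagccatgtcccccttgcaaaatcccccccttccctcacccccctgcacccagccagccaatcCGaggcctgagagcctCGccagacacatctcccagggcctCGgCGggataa

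Pax5 had 19 CG dinucleotides in its 250 bases, Pax7 had 13 and Pax1 had 10. Pax9 had 7 and Pax8 had 6, close to the median of 6 over the 32851 windows of this length in the table (quartiles 2 and 16). CG was searched as the letters CG, which read the same on both strands, and 92.1% of all windows held at least 1. At least as many CG as in Pax5 were found in 19.7% of all windows. For Pax7, Pax1, Pax9 and Pax8 this share was 31.5, 37.8, 46.3 and 50.4%. The counts of Pax7 and Pax1 lay within the quartiles of the table. The 3 genes with peaks thus had more CG than the 2 without, but this order did not extend to every start of Pax2. Its 3 listed starts had 5, 20 and 25 CG, while both starts of Pax6 had 15. Corrected for base content, the observed to expected CG ratio was 0.88 for Pax5, 0.665 for Pax1, 0.617 for Pax9, 0.516 for Pax7 and 0.314 for Pax8, against a median of 0.373 over the table, so on this scale Pax9 stood above Pax7. Pax3 and Pax4 were not matched in the table.

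Pax2, which is needed for kidney, ear and optic nerve development, carried the largest covered length. Its window held 4 EZH2 peaks with 56396 bp, 4 FLAG peaks with 32796 bp and 3 H3K27me3 peaks with 71397 bp. Pax2 alone made up 39.7% of the EZH2 bases at all Pax genes. The central EZH2 peak, on chromosome 19 from 44806001 to 44839999, spanned 33999 bp and was the second widest of all 902. H3K27me3 was called over exactly the same interval, and FLAG lay inside it as 1 peak of 4599 bp (44807001 to 44811599) and 1 of 21599 bp (44816401 to 44837999), the latter ranking 4 of 438 by width. Both edges of H3K27me3 and EZH2 coincided at 22 of the 807 H3K27me3 peaks with EZH2, or 2.73%, and this was the only such site at a Pax gene.

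The other Pax2 peaks differed from the central one in how the signals were divided. At the left end of the window, EZH2 formed peaks from 44742001 to 44752799 (10799 bp) and from 44754601 to 44760199 (5599 bp), separated by 1801 bp. FLAG was present in the first of these, from 44743601 to 44748799 (5199 bp), and absent from the second. A single H3K27me3 peak of 30199 bp, from 44741401 to 44771599, covered both and ran 11400 bp past the second EZH2 peak. At the right end, 68201 bp past the central peak, a 5999 bp EZH2 peak (44908201 to 44914199) held a FLAG peak of 1399 bp (44909801 to 44911199) under 7199 bp of H3K27me3 (44908001 to 44915199). By gene order in RefSeq (GRCm38.p6), the nearest protein-coding neighbours of Pax2 are Hif1an and Slf2. Which of the intervals belong to Pax2 itself was not tested.

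Pax5, the factor that commits cells to the B lineage, had a single EZH2 peak, and its FLAG signal was split. The EZH2 peak lay on chromosome 4 from 44709601 to 44732399 and spanned 22799 bp, rank 22 of 902. FLAG peaks of 6999 bp (44714201 to 44721199) and 3999 bp (44723801 to 44727799) lay inside it, 2601 bp apart and each 4600 bp from the nearer EZH2 edge. H3K27me3 covered 22199 bp from 44709401 to 44731599, ending 800 bp inside the right EZH2 edge. A second, narrow H3K27me3 peak of 2399 bp, from 44676201 to 44678599, had neither EZH2 nor FLAG and was the only interval of its kind at the Pax genes. The nearest EZH2 peaks outside the Pax5 window were 1.57 and 1.08 Mb away, but an H3K27me3 peak of 1799 bp lay 60.6 kb to the left.

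Pax8, which drives thyroid follicle cell development and is the third member of the subfamily with Pax2 and Pax5, had no peak. The nearest interval outside its window was an H3K27me3 peak of 399 bp, the narrowest width in that list, 258.4 kb to the right. The nearest EZH2 peak was 736.0 kb away and the nearest FLAG peak 783.6 kb away. The contrast within this subfamily was therefore between 79195 bp of EZH2 at Pax2 and Pax5 and none at Pax8.

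Pax7, known for the satellite cells of skeletal muscle, held a pair of EZH2 peaks joined by a single H3K27me3 peak. EZH2 covered chromosome 4 from 139372801 to 139394999 (22199 bp, rank 26 of 902) and from 139405201 to 139411399 (6199 bp), with 10201 bp between them. Each held a FLAG peak, of 16799 bp (139375601 to 139392399, rank 12 of 438) and 2799 bp (139407001 to 139409799). H3K27me3 ran from 139373601 to 139412399, 38799 bp, across the gap, and was the widest H3K27me3 peak at a Pax gene. EZH2 covered 71.1% of it. An H3K27me3 peak over at least 2 EZH2 peaks was found at 3.82% of the whole list, and at 2 of the 8 Pax peaks, those of Pax7 and of the left end of Pax2 (25.0%, 3.19 to 65.1%). These 2 peaks are 38799 and 30199 bp wide, against a list median of 4599 bp, and the part of width in this count was not tested. The EZH2 peaks under the Pax2 one are 1801 bp apart, so joining gaps of at most 5 kb merges them.

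Pax3, the partner of Pax7 in neural crest and muscle progenitors, had no peak, and none lay near it. The nearest interval of any list ended 3.07 Mb to the left of the window, and the nearest on the right began 9.68 Mb away. The stretch without a peak of any list ran on chromosome 1 from 75003400 to 87913800, a length of 12.9 Mb, and was 21st in length of 1154 such stretches, whose median was 0.888 Mb. Around Pax7 the nearest EZH2 peaks outside the window were 369.6 kb to the right and 1.305 Mb to the left, although the next FLAG peak to the right was 7.28 Mb away. Long stretches without FLAG also flanked genes with peaks, such as the 13.6 Mb to the right of the Pax6 window. Whether this stretch is poorly mapped in these libraries was not tested.

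Pax6, a regulator of eye, brain and pancreatic islet development, carried long EZH2 and H3K27me3 peaks with little FLAG. The EZH2 peak lay on chromosome 2 from 105498601 to 105529999 and spanned 31399 bp, rank 4 of 902. H3K27me3 covered 32599 bp from 105499001 to 105531599. FLAG was limited to 2799 bp from 105507801 to 105510599, which is 8.91% of the EZH2 peak. This was the second lowest share among the 410 EZH2 peaks with FLAG, whose median was 51.7% (interquartile range 37.0 to 65.0%), and also the second lowest among the 37 of at least 20 kb, whose median was 61.5%. The FLAG peak lay 9200 bp from the left EZH2 edge and 19400 bp from the right one, the longest distance from a FLAG peak to an EZH2 edge at any of the 410. Pax4, which acts in islet cell specification, had no peak, and the nearest EZH2, FLAG and H3K27me3 peaks were 274.0, 275.2 and 273.8 kb to the left of its window.

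Pax1, needed for the sclerotome and the thymus, had the narrowest EZH2 peak of the family and no FLAG. EZH2 covered 3199 bp on chromosome 2 from 147189401 to 147192599, and H3K27me3 covered 5799 bp from 147186601 to 147192399. H3K27me3 thus reached 2800 bp past the left edge of EZH2 and ended 200 bp inside the right edge. No EZH2 peak of up to 3399 bp carried FLAG in these lists (0 of 235), so the width of the Pax1 peak falls in a class without FLAG calls. Pax9, which acts in tooth and pharyngeal pouch development, had no peak in its window. A 2199 bp EZH2 peak with 1199 bp of H3K27me3 lay 45.4 kb to the left, on chromosome 12 from 57712401 to 57714599, and the nearest FLAG peak was 117.8 kb away. The next genes on that side by RefSeq order are Nkx2-9 and Nkx2-1, and to which gene this peak belongs was not tested.

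Across the family, EZH2 peaks were wide for their list. Their median width was 10799 bp (9 peaks, 3199 to 33999 bp), against 5199 bp over all 902. Of the 9, 4 were at least 20 kb wide, those at Pax2, Pax5, Pax6 and Pax7, compared with 40 of 902 peaks, or 4.44%. The median depends on how peaks are counted. It was 20199 bp when peaks with gaps of at most 5 kb were joined, 16499 bp when peaks no wider than the lower quartile of their list were left out, and 22199 bp without Pax2, whose smaller peaks weigh on it. It was 8499 bp when the windows were widened by 50 kb, which adds the narrow peak near Pax9. FLAG peaks had a median of 4599 bp (9 peaks, 1399 to 21599 bp), near the 3999 bp of the whole list. H3K27me3 peaks had a median of 26199 bp (8 peaks, 2399 to 38799 bp), against 4599 bp. In all, the Pax windows held 2.28% of the EZH2 bases, 2.99% of the FLAG bases and 1.87% of the H3K27me3 bases of the lists.

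**Figure D2:**
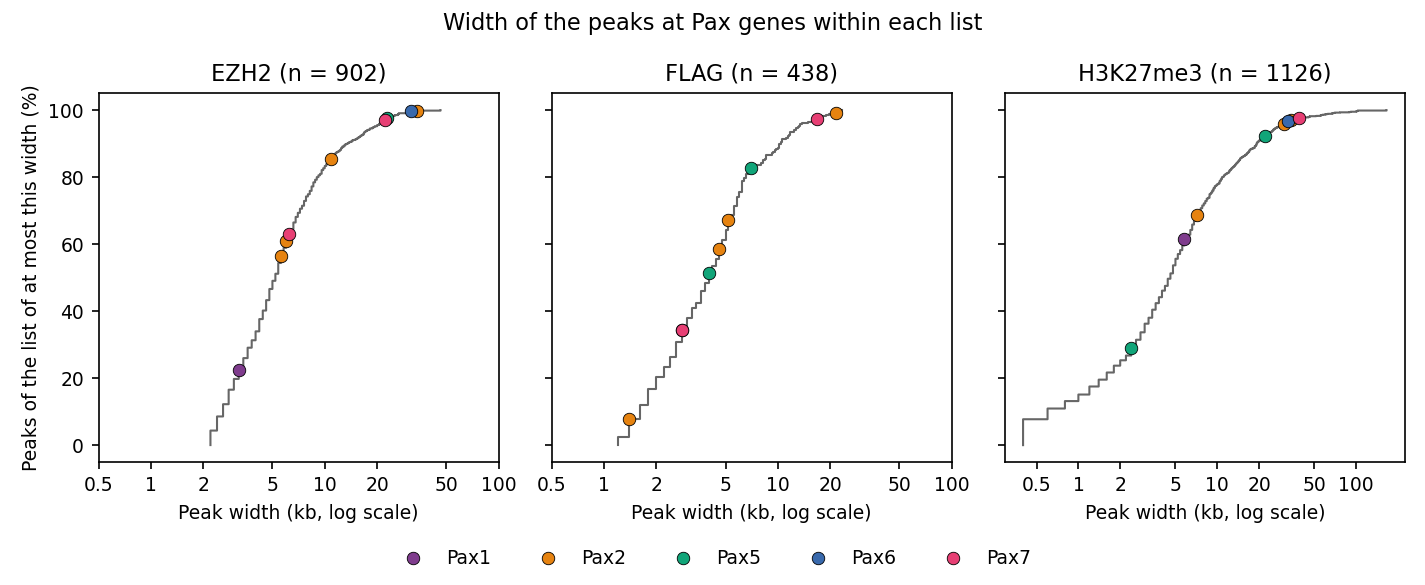
Width of the peaks at Pax genes (points, by gene) on the cumulative distribution of width over each list (grey line), with width in kb on a log axis and the share of peaks of at most that width in percent. EZH2 peaks at Pax2, Pax6, Pax5 and Pax7 (33999, 31399, 22799 and 22199 bp) sit at the upper end of their list, where the Pax5 and Pax7 points nearly coincide, while FLAG peaks are spread over theirs.

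FLAG was present at 7 of the 9 EZH2 peaks (77.8%, 40.0 to 97.2%), against 45.5% of all EZH2 peaks. Width moves with this share. In the widest quartile group of EZH2 peaks (8199 bp and more) FLAG was called at 87.2% of the whole list, and at all 5 of the Pax peaks. Between 5399 and 7999 bp it was called at 76.2% of the list and at 2 of the 3 Pax peaks. The part of width in the Pax share was not tested. The EZH2 peaks without FLAG were those of Pax1 and the 5599 bp peak at Pax2. Among the alternatives, leaving out peaks narrower than the narrowest EZH2 peak gave the lowest share of EZH2 peaks with FLAG, 6 of 9 (66.7%). Joining gaps of at most 5 kb gave the highest, 7 of 8 (87.5%). At least 2 FLAG peaks lay in 2 of the 9 EZH2 peaks, the central one at Pax2 and that at Pax5 (22.2%, 2.81 to 60.0%), against 1.22% of the list, or 11 of 902. The FLAG peaks within them are 4801 bp (Pax2) and 2601 bp (Pax5) apart, so joining gaps of at most 5 kb merges each pair. These 2 EZH2 peaks are each wider than 20 kb. Of the 37 EZH2 peaks of at least 20 kb with FLAG in the whole list, 7 held at least 2 FLAG peaks. The part of width in this count was not tested either.

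The length of an EZH2 peak that lay under FLAG differed widely within the family. It was 77.1% at the central Pax2 peak and 75.7% at the wider Pax7 peak. It was 48.2% at Pax5, 48.1% at the left Pax2 peak and 45.2% at the narrower Pax7 peak. The right Pax2 peak, with 23.3%, and Pax6, with 8.91%, were the lowest. The 7 peaks had a median of 48.1%, close to the 51.7% of all 410 peaks with FLAG. The 4 Pax peaks wider than 20 kb thus spanned nearly the whole range of shares, from 8.91 to 77.1%, while their widths ran from 22199 to 33999 bp.

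**Figure D3:**
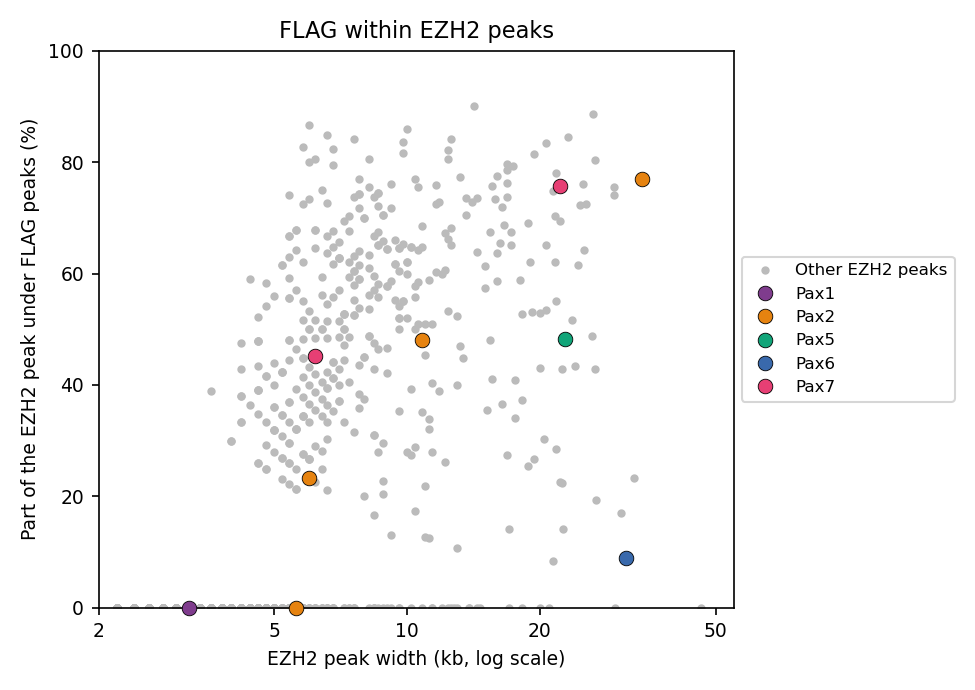
Part of each EZH2 peak that lies under FLAG peaks, in percent, against EZH2 peak width in kb on a log axis, for the 9 peaks at Pax genes (coloured by gene) and the other EZH2 peaks (grey). Pax6 lies at 8.91% near the right end, far below the central Pax2 peak at 77.1%, and Pax1 and 1 Pax2 peak lie at 0.

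All 9 FLAG peaks at Pax genes overlapped EZH2 (100%, 66.4 to 100%) and H3K27me3 (100%, 66.4 to 100%), against 96.6% and 98.6% of all FLAG peaks. All 9 EZH2 peaks overlapped H3K27me3 (100%, 66.4 to 100%), against 95.2% of the list. EZH2 was present at 7 of the 8 H3K27me3 peaks (87.5%, 47.3 to 99.7%), against 71.7%, the exception being the narrow peak at Pax5. FLAG was present at 6 of the 8 (75.0%, 34.9 to 96.8%), against 36.1%. Of these 8 H3K27me3 peaks, 5 were at least 20 kb wide, against 9.06% of the list, and the part of width in these shares was not tested. The 95% intervals treat peaks as independent, although 4 of the 9 EZH2 peaks and 4 of the 9 FLAG peaks share the Pax2 window, and they were not used as tests against the lists.

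H3K27me3 often reached past EZH2 at the Pax genes. The outer edges were compared at the 7 H3K27me3 peaks that carry EZH2. H3K27me3 ended beyond the outer EZH2 edge at 8 of 14 edges, inside it at 4 and level with it at 2, with a median of 200 bp beyond. Over all 807 such peaks the median was -400 bp, that is inside EZH2, and 20.8% of 1614 edges lay beyond. Among the 48 peaks over at least 20 kb of EZH2, 24.0% of 96 edges lay beyond. At the Pax genes, 4 of 8 edges lay beyond when Pax2 was left out, and 8 of 16 when windows were widened by 50 kb. Most of the Pax distances were small, since 12 of the 14 were at most 1600 bp, or 8 of the 200 bp steps in which peak edges vary. The exceptions were the 11400 bp at the left end of Pax2 and the 2800 bp at Pax1. Summed over the windows, H3K27me3 covered 173192 bp (mean width 21649 bp) and EZH2 142191 bp (mean width 15799 bp), a ratio of 1.22, and the ratio of the whole lists was 1.49. By gene it was 1.81 at Pax1, 1.37 at Pax7, 1.27 at Pax2, 1.08 at Pax5 and 1.04 at Pax6. These sums include H3K27me3 peaks without EZH2. Taken per H3K27me3 peak with EZH2, the median ratio was 1.2 at the 7 Pax peaks. It was 0.909 over all 807 peaks and 1.0 over the 48 with at least 20 kb of EZH2, so the order was the reverse of that of the sums. The ratios follow the authors' peak calls, made with a caller and thresholds that the sources used here do not give.

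**Figure D4:**
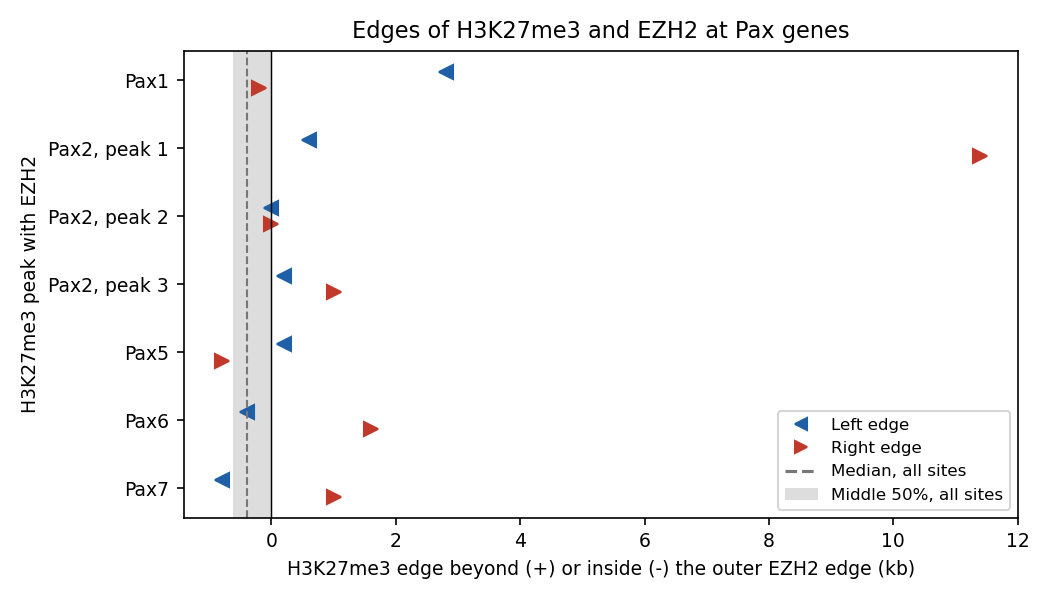
Distance in kb from the outer EZH2 edge to the H3K27me3 edge at the 7 H3K27me3 peaks with EZH2 at Pax genes, positive where H3K27me3 reaches beyond EZH2, for the left edge (blue) and the right edge (red). The dashed line and grey band give the median (-400 bp) and the middle 50% of 1614 edges over all 807 peaks, and the right edge of the first Pax2 peak stands apart at 11.4 kb.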

How the data were processed

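Chromatin was digested with micrococcal nuclease and immunoprecipitated, per the labels' protocols. Bowtie 1.0.0 and deepTools were used with build mm9, per the submitters' processing notes, and the sources used here name no peak caller. Each deposited list gives a start and end in bp per peak of 1 library, without scores. Deposited starts (counted from 0) fall on multiples of 200 bp and ends 1 bp below such positions, so edges vary in 200 bp steps, and the text prints each start 1 bp higher.

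All intervals overlapping the 9 Pax windows were kept, and overlap means at least 1 bp. Shares have exact Clopper-Pearson 95% intervals (SciPy 1.17.1, Python 3.11.15). Shares and medians stand beside those of the whole lists, and no test was made. All 9 genes are named. The genes and measures were chosen with earlier results of these data known. The list of other genes of the Pax network was not used, because it needs mm9 annotation. Neighbours and promoter bases came from RefSeq tables of GRCm38.p6, in which 9 and 7 of the genes were matched. Overlap functions were tested on simulated data.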

Additional observations from a re-analysis of the deposited data

How the results depend on the processing

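Of 78 values under alternatives, 60 did not move by the limits used, which were the 95% interval for shares, 1.5 times for counts of genes, and any change for medians and ratios. All 18 that moved were medians or ratios. The limits for shares and gene counts were wide at these small numbers, such as 40.0 to 97.2% for FLAG at 7 of 9 EZH2 peaks. Staying within them therefore says little about stability. Leaving out Pax2, the edge counts and the FLAG share of EZH2 length were added after the data were seen. Leaving out peaks no wider than the lower quartile of their list, joining gaps of at most 5 kb, widening windows by 50 kb and leaving out Pax2 gave a median EZH2 width of 16499, 20199, 8499 and 22199 bp. For FLAG the median was 4899 bp without narrow peaks (by quartile, or under the narrowest EZH2 peak), 5199 bp joined and 3999 bp without Pax2. For H3K27me3 it was 22199 bp both with wider windows and without Pax2. The ratio of H3K27me3 to EZH2 bases was 1.25, 1.2, 1.21 and 1.19 in the order of the EZH2 widths, and the median FLAG share was 48.2% under both filters on narrow peaks, 45.2% joined and 46.7% without Pax2. Wider windows brought Pax9 in, giving 6 genes with EZH2, and the quartile filter removed EZH2 at Pax1, leaving 4. Without scores, no stricter threshold was available. No paired analysis was possible because each group has 1 library and the results come from no test.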
